A study of Mus musculus with 14 samples.

Results

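The renin-angiotensin system was followed through 8 mouse genes in liver and kidney RNA: Agt (angiotensinogen), Ren1 (renin), Atp6ap2 (the prorenin receptor), Ace (angiotensin-converting enzyme), Agtr1a and Agtr1b (the pair of type 1 angiotensin receptors of the mouse), Agtrap (a protein that binds the type 1 receptor) and Mas1 (the receptor of angiotensin-(1-7)). They were chosen by symbol for their place in the pathway, with earlier results of these data known. Of the 8 genes, 7 had a row in the liver count table, among 19660 genes, and the same 7 had a row in the kidney table, among 20203. Agtr1b had none in either, and no row of these tables had a total under 10 counts.

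All libraries came from transgenic male mice of 12 weeks with the genotype Hap -6A, a promoter haplotype of a human angiotensinogen transgene, kept on a normal diet or given a high salt diet. Both diets therefore carry the transgene, and no group without it was available for comparison here. The mouse strain, the promoter region in the transgene, the salt dose and the time on the diet are not given in the sources used here. Liver had 4 libraries per diet (normal diet 1 to 4, and high salt HS5 to HS8, whose column numbers match no sample title) and kidney had 3 per diet (1 to 3 in each). The labels do not say whether each library is a separate animal, so the p-values measure the spread between libraries, which may be partly technical.

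Liver secretes angiotensinogen into the blood, and renin, released by juxtaglomerular cells at the afferent arterioles of the kidney, cuts angiotensin I from it. Angiotensin-converting enzyme turns this peptide into angiotensin II, which acts through the type 1 receptor to constrict vessels, raise aldosterone and hold sodium. A high salt intake is known to lower renin release, since the macula densa senses sodium chloride in the tubule, and angiotensin-(1-7) acting through Mas is known to counter many effects of angiotensin II.

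Liver libraries held 37267778 to 51487382 counts and kidney libraries 16046094 to 22004927. Genes of the mitochondrial genome took 2.06% and 2.30% of the counts of normal diet liver libraries 2 and 1, and 11.3% to 29.6% of those of the other 6. The summed level of 10 hepatocyte markers was 71202 to 119450 CPM in liver and 178 to 243 in kidney, where CPM is a count scaled by the total of its library. The summed level of 8 markers of the loop of Henle, distal tubule and collecting duct was 2138 to 3306 CPM in kidney. In liver it was 0.0713 to 2.64 CPM, with 4 of these 8 genes having no row in the liver table (Aqp2, Scnn1g, Atp6v1g3 and Pvalb). Of all pairs within a group, HS5 and HS6 were the closest, with a chi-square per gene of 1.59, where counting error alone gives about 1. The next pair had 5.16, and the other high salt liver pairs had 14.3 to 40.5. The main liver fit counts HS5 and HS6 as 2 libraries. Its p-values and intervals may be too small if they are not separate animals. Enpep, the count of genes passed, the members at an unadjusted p under 0.05 and the lists are also given with HS5 and HS6 summed as 1 library.

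The upstream sequences of the 3 genes that start the pathway are shown because their levels separated liver from kidney, or the diets, more than those of the other members. They run from base -250 to base -1 of the RefSeq start, 5′ to 3′, on the gene's strand in GRCm38.p6. Capitals mark TATAAA and TTCNNNGAA (the pattern of a STAT factor site) in Agt, TATAAA in Ren1 and GGGCGG (a GC box) in Ace. The coordinates are chr8:124569707-124569956 (minus strand) for Agt, chr1:133350424-133350673 (plus strand) for Ren1 and chr11:105967698-105967947 (plus strand) for Ace.
Agt: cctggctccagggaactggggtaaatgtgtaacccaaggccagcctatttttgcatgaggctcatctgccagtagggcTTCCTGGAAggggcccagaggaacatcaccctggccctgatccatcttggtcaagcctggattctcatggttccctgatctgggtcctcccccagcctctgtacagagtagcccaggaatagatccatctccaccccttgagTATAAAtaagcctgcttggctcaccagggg
Ren1: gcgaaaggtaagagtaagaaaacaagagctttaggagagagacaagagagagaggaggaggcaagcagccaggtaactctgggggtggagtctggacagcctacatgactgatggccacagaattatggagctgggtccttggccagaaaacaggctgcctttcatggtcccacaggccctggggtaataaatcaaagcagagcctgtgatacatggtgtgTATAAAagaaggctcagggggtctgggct
Ace: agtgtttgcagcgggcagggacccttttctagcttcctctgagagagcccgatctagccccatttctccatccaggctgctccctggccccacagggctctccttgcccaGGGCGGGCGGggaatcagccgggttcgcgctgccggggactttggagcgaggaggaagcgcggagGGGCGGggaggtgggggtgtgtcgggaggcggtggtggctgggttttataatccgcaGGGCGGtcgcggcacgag

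TATAAA began at base -30 of Agt and base -29 of Ren1, and was found in 12.4% of the 250-base upstream regions of all 32851 RefSeq promoters when both strands were searched. Agt also held TTCNNNGAA, from base -172, as did 7.02% of all promoters. At the start shown, Ace had TATAAA on the minus strand alone and 4 copies of GGGCGG, the first 2 of which overlap, and 32.7% of all promoters held at least 1 copy. RefSeq promoters were found for 7 of the 8 genes. A further RefSeq start of Ace, at 105975189 inside the gene, had neither TATAAA nor GGGCGG upstream, and CCAAT on the minus strand from base -25. Agtr1b had TATAAA from base -31, and Atp6ap2 had none but 3 copies of CCAAT, which 33.8% of all promoters held. Agtrap held CACGTG from base -13, a pattern found in 6.02% of promoters, and Mas1 held CCAAT from base -93. No other run of TATAAA or TTCNNNGAA was present in these windows, which are letter matches and not measured sites. The annotated start of Ren1 differs between sources, at 133350510 in GENCODE M21 and 133350674 in RefSeq.

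Agt, the precursor of all angiotensin peptides (chr8, 124556534 to 124569706, minus strand), was the most abundant of these genes in liver. It measured 411, 354, 348 and 485 CPM in normal diet libraries 1 to 4, and 276, 317, 318 and 293 CPM in high salt libraries HS5 to HS8. Every high salt library lay below every normal diet library, with the gap narrowest between normal diet library 3 and HS7. The log2 fold change was -0.41 (SE 0.168, 95% interval -0.784 to -0.0326), a 1.33-fold lower level that did not pass (edgeR quasi-likelihood test, adjusted p = 0.207). Of the 15130 genes tested in liver, 6.03% had high salt libraries all below the normal diet ones and 1.00% passed an adjusted p of 0.05.

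Genes of the acute phase response, the secreted proteins that hepatocytes raise in inflammation, were measured beside Agt. Of 10 such genes, 0 passed by edgeR (the lowest adjusted p was 0.0661, for Crp) and 3 by DESeq2. Over all liver genes, DESeq2 called 530 higher and 592 lower. All 10 had a log2 fold change below 0 with an unadjusted p under 0.05, beside 21.2% of all liver genes at that p, and for 7 the diets did not overlap. Saa2, Saa3 and Fgg overlapped. Their summed level was 8083, 8726, 5449 and 66958 CPM in normal diet libraries 1 to 4, and 3987, 3982, 4633 and 3576 CPM in HS5 to HS8. Normal diet library 4, the highest for Agt, stood far above all others. Across the 8 libraries Pearson's r between Agt and each of the 10 genes ran from 0.827 (Saa2) to 0.944 (Orm1), with a median of 0.878, as a description over points that share diet group and library. Without normal diet library 4 the median r was 0.795 over 7 libraries and the lowest 0.535. The part of the acute phase response in the Agt difference was not tested. Without library 4 the log2 fold change of Agt was -0.31 (adjusted p = 0.193 by edgeR). Of 10 hepatocyte markers 0 passed by edgeR (2 at an unadjusted p under 0.05, and 2 passed in DESeq2) and 7 were below 0 on the log2 scale, with a median of -0.17. These include the fibrinogen genes Fga (-0.62) and Fgb (-0.52), while Fgg is in the acute phase list, so the 2 lists are not separate. Alb (albumin) measured 32441 to 50637 CPM in normal diet libraries and 67824 to 85226 CPM in high salt ones. The other 9 together measured 33656 to 44154 CPM and 32928 to 34227 CPM, with overlap. In whole tissue, fewer cells of a type and less RNA per cell cannot be told apart.

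**Figure D1:**
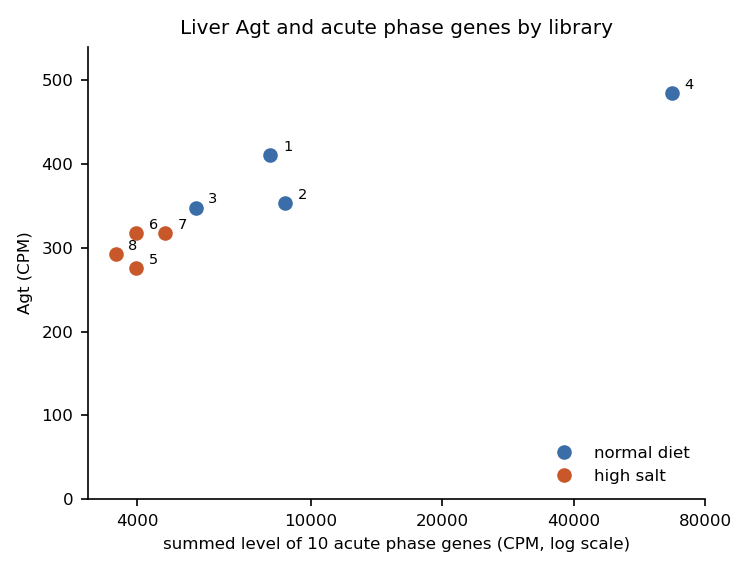
Level of Agt (CPM, vertical axis) against the summed level of 10 acute phase genes (CPM, log scale) in each liver library, with blue points for normal diet libraries 1 to 4 and orange points for HS5 to HS8. The 4 high salt libraries sit at the lower left, between 3576 and 4633 CPM of acute phase genes, and normal diet library 4 sits alone at 66958 CPM.

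In kidney, Agt is made mainly by proximal tubule cells. It measured 27.2, 18.1 and 14.2 CPM in normal diet libraries 1 to 3 and 16.4, 14.4 and 25.8 CPM in high salt libraries 1 to 3. The diets overlapped fully, with 1 high library in each. The log2 fold change was -0.069 (SE 0.312, 95% interval -0.786 to 0.648, edgeR adjusted p = 0.9996), an interval that includes a difference as large as that seen in liver. Reads of the human transgene were not analysed here. Any that resemble mouse Agt could be counted with it, in both tissues, and this was not tested.

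Renin, the enzyme that cuts angiotensinogen, showed the lowest unadjusted p of the 7 genes in kidney. Ren1 (chr1, 133350510 to 133360325, plus strand) measured 20.6, 27.7 and 27.4 CPM in normal diet kidney libraries 1 to 3 and 12.5, 16.9 and 14.8 CPM in high salt libraries 1 to 3. Every high salt library lay below every normal diet library. The mean was 25.3 CPM (SD 4.01, n = 3) without and 14.7 CPM (SD 2.19, n = 3) with high salt. On the log2 scale this is -0.78 (SE 0.209, 95% interval -1.26 to -0.297), or 1.72-fold lower. Its unadjusted p was 0.00575 by edgeR and its adjusted p over 15847 genes was 0.9996, so it did not pass. Of all kidney genes tested, 0% passed, 2.01% had an unadjusted p under 0.05 and 3.04% had all high salt libraries below the normal diet ones. Some mouse strains carry an additional renin gene, Ren2, whose reads could be counted with Ren1 where it is present.

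Cells that share the vessel wall with renin cells were measured beside it. The summed level of 8 mural and mesangial markers was 88.6, 94.5 and 105 CPM in normal diet kidney libraries 1 to 3 and 106, 87 and 90.9 CPM in high salt libraries 1 to 3, and the diets overlapped. Akr1b7, an enzyme enriched in renin cells, measured 0.899, 1.46 and 2.08 CPM on the normal diet and 2.05, 2.77 and 1.05 CPM on high salt, also with overlap. Its log2 fold change of 0.39 was the highest of the 14 genes of renin cells and the macula densa tested in kidney. Of these 14, 8 were below 0, and their median was -0.083. Summed levels of 10 immune markers were 34.2, 174 and 146 CPM on the normal diet and 55.8, 84.3 and 87.7 CPM on high salt, and like Ren1 they were lowest in library 1 of each diet. A list of 8 heart and skeletal muscle markers, of which 4 had a row, summed to 2.63 to 3.52 CPM on the normal diet and 0.409 to 1.01 CPM on high salt, without overlap. Their part in the Ren1 difference was not tested.

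**Figure D2:**
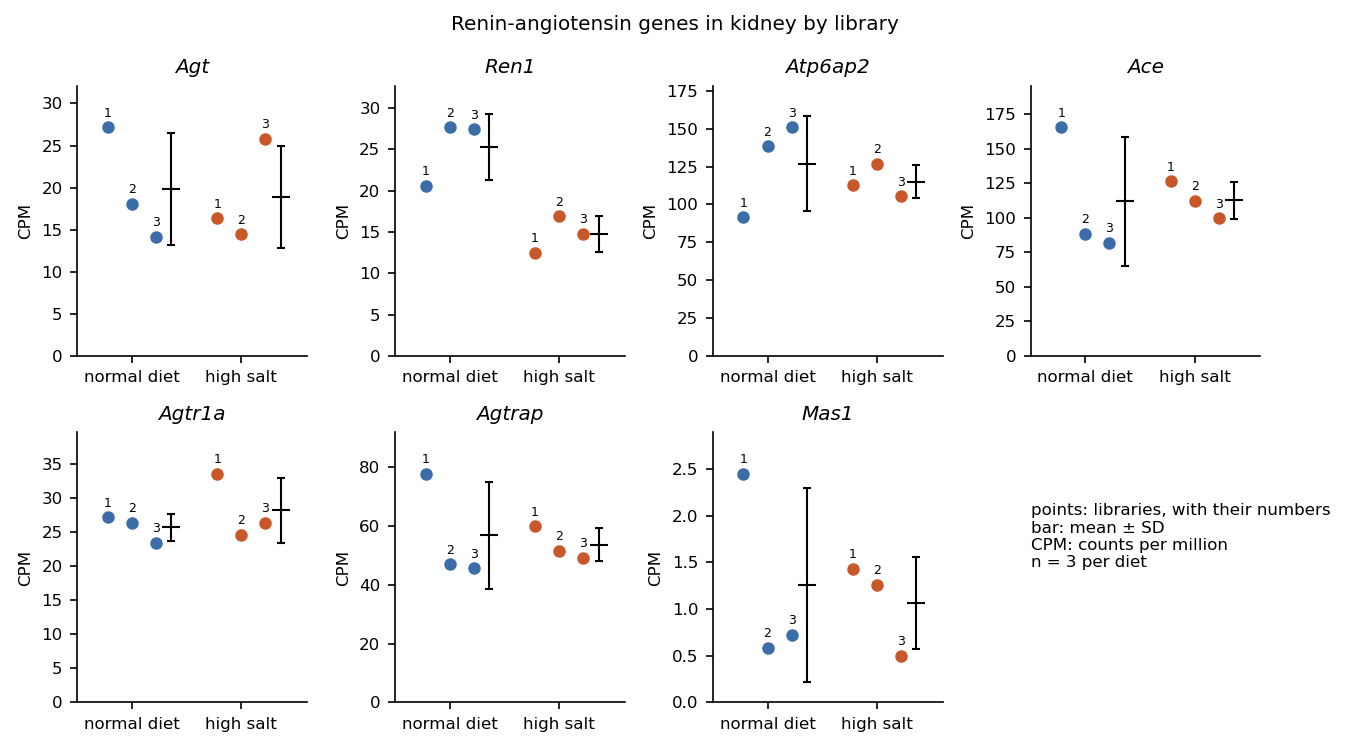
Level of each gene (CPM, vertical axes that differ between panels) in kidney libraries 1 to 3 of the normal diet (blue) and of high salt (orange), with bars for the mean and SD. Ren1 is the gene whose diets do not overlap, and normal diet library 1 is the highest point for Agt, Ace, Agtrap and Mas1.

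Liver is not a known source of circulating renin, and Ren1 was near its detection limit in 6 of the 8 liver libraries. Raw counts were 1, 1, 5 and 583 in normal diet liver libraries 1 to 4, and 1, 0, 0 and 146 in HS5 to HS8. Normal diet library 4 reached 14.01 CPM and HS8 reached 2.58 CPM, while the other 6 did not exceed 0.157 CPM. A count of 0 allows up to 3 counts, or 0.0622 CPM in HS6 and 0.0624 CPM in HS7. Ren1 did not pass the filter on low counts in liver, so its diet contrast there was not tested.

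The 2 libraries with Ren1 reads were compared with the rest at other genes, a comparison chosen after the values were seen. Over the whole liver table, 5 genes were above 1 CPM in both and over 3-fold the highest of the other 6 libraries. They were Ren1, Ctse, AA465934, Prelid2 and Rad51b. Ctse, which encodes the aspartic protease cathepsin E, measured 5.33 CPM in normal diet library 4 and 23.0 CPM in HS8, and at most 0.119 CPM elsewhere. It lies on the same chromosome as Ren1, 1.675 Mb away. The 6 neighbours of Ren1 that were read out lay within the range of the other libraries. Etnk2, the next gene downstream, was at 223 CPM and 171 CPM in these libraries and at 156 to 502 CPM in the others. Umod, a marker of the thick ascending limb, had 1 count in normal diet library 4 and 27 in HS8. It was highest in HS7, with 68 counts, where Ren1 had 0. Slc34a1, a marker of the proximal tubule, had 2 counts in normal diet library 4, 113 in HS8 and 198 in the highest other library. Without the filter on low counts, 9 of 10 proximal tubule markers were above 0 in liver (median log2 2.47), and 0 passed by edgeR. The part of kidney transcripts in liver Ren1, Ace and Mas1 was not tested.

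**Figure D3:**
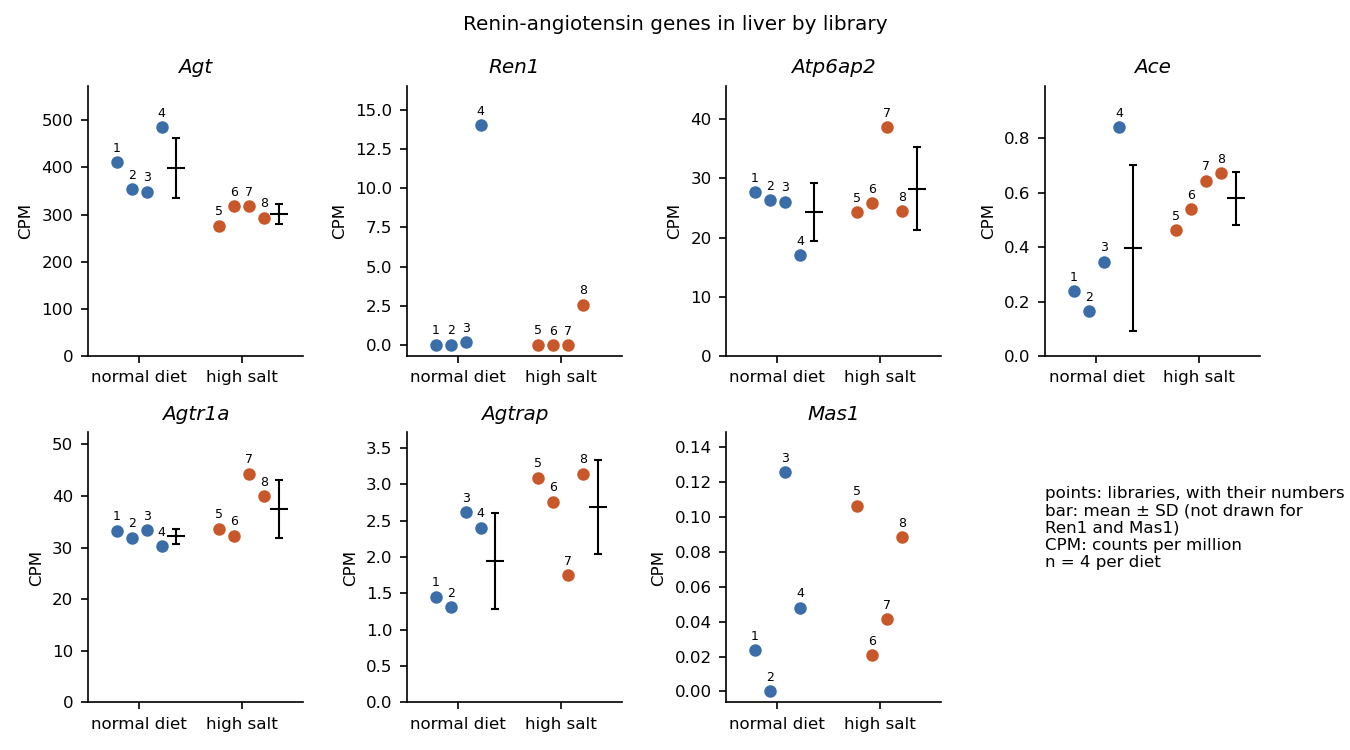
Level of each gene (CPM, vertical axes that differ between panels) in liver libraries 1 to 4 of the normal diet (blue) and 5 to 8 of high salt (orange), with bars for the mean and SD where drawn. The Agt points of the diets do not overlap, and Ren1 lies near 0 in all libraries but normal diet library 4 and HS8.

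Atp6ap2 encodes the prorenin receptor, which is also an accessory subunit of the proton pump of vesicles, the V-ATPase (chrX, 12587801 to 12617049). In liver it measured 27.7, 26.3, 26.0 and 17.1 CPM in normal diet libraries 1 to 4 and 24.2, 25.8, 38.6 and 24.4 CPM in HS5 to HS8. In kidney it measured 91.5, 138.3 and 151 CPM on the normal diet and 113, 127 and 105 CPM on high salt. One library stood apart in each liver diet, low in normal diet library 4 and high in HS7, and the diets overlapped in both tissues. The log2 fold change was 0.22 (SE 0.211, edgeR adjusted p = 0.561) in liver and -0.14 (SE 0.239, adjusted p = 0.9996) in kidney.

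Ace, the converting enzyme of endothelium and of the proximal tubule brush border (chr11, 105967945 to 105989964, plus strand), was close to absent from liver. It measured 0.238, 0.163, 0.346 and 0.841 CPM in normal diet liver libraries 1 to 4 and 0.462, 0.539, 0.644 and 0.671 CPM in HS5 to HS8, from 6 to 38 counts. Normal diet library 4 lay above every high salt library and the other 3 below, so that the diets overlapped. The log2 fold change was 0.53 (SE 0.474, 95% interval -0.527 to 1.59, edgeR adjusted p = 0.532), and it was -0.054 without normal diet libraries 1 and 2.

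In kidney, Ace measured 166, 88.4 and 81.9 CPM on the normal diet and 126.3, 112 and 99.6 CPM on high salt. Normal diet library 1 was the highest of the 6 and the other normal diet libraries the lowest. The means were almost equal, with a log2 fold change of 0.010 (SE 0.299, 95% interval -0.678 to 0.698). Agtrap and Mas1 followed the same library. The r between Ace and Agtrap was 0.975, and between Ace and Mas1 0.901, over 6 libraries and as a description. Summed proximal tubule markers were also highest in normal diet library 1, at 5252 CPM against 3751 and 3813 CPM in normal diet libraries 2 and 3 and 4293 to 4839 on high salt. Its mitochondrial share was the highest too, at 41.2%. Whether either plays a part in the Ace values was not tested.

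The type 1 receptor of angiotensin II was represented by Agtr1a (chr13, 30336441 to 30382867, plus strand). In liver it measured 33.3, 31.9, 33.3 and 30.3 CPM in normal diet libraries 1 to 4 and 33.6, 32.3, 44.3 and 40.0 CPM in HS5 to HS8. In kidney it measured 27.2, 26.4 and 23.4 CPM on the normal diet and 33.6, 24.6 and 26.4 CPM on high salt. Normal diet libraries were close together in both tissues, and HS7, HS8 and kidney high salt library 1 were above the rest. The diets overlapped, with a log2 fold change of 0.22 (SE 0.144, 95% interval -0.0986 to 0.542, edgeR adjusted p = 0.394) in liver and 0.14 (SE 0.191, 95% interval -0.304 to 0.575, adjusted p = 0.9996) in kidney.

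Agtr1b, the other type 1 receptor (chr3, 20314473 to 20367177, minus strand), was listed in the deposited kidney table of normalized values. Its signal there was 0.986, 0 and 1.88 in normal diet libraries 1 to 3 and 3.38, 2.41 and 0 in high salt libraries 1 to 3, while that of Agtr1a was 525 ± 33.0 and 582 ± 89.6 (SD, n = 3 each). Values at this level are too low for a diet comparison. The coding sequences of the receptors have 1080 bases each, of which 981 (90.8%) are identical. Of the 50-base words of Agtr1b, 3.2% also occur in Agtr1a.

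Agtrap, which promotes internalisation of the type 1 receptor (chr4, 148077061 to 148088031, minus strand), measured 1.45, 1.31, 2.61 and 2.40 CPM in normal diet liver libraries 1 to 4 and 3.09, 2.76, 1.75 and 3.14 CPM in HS5 to HS8. In kidney it measured 77.7, 46.9 and 45.6 CPM on the normal diet and 59.9, 51.6 and 49.1 CPM on high salt. The highest normal diet kidney library exceeded all high salt ones, and in liver 3 of the 4 high salt libraries exceeded all normal diet ones. The log2 fold change was 0.47 (SE 0.302, 95% interval -0.206 to 1.14, edgeR adjusted p = 0.393) in liver and -0.083 (SE 0.252, adjusted p = 0.9996) in kidney. Leaving out normal diet kidney library 1 turned the kidney value to 0.21.

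Mas1, the receptor of angiotensin-(1-7) (chr17, 12841079 to 12868143, minus strand), was scarce. It had 49, 10 and 15 counts in normal diet kidney libraries 1 to 3 and 32, 20 and 11 in high salt libraries 1 to 3. In liver it had 1, 0, 4 and 2 counts on the normal diet and 6, 1, 2 and 5 on high salt, too few to pass the filter. The kidney diets overlapped, with a log2 fold change of -0.25 (SE 0.643, 95% interval -1.73 to 1.23, edgeR adjusted p = 0.9996), which was 0.68 without normal diet library 1.

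The diet difference passed for 0 of the 5 genes tested in liver and 0 of the 7 tested in kidney at an adjusted p of 0.05 by edgeR, and for none of them by DESeq2. At an unadjusted p under 0.05 there was 1 in each tissue, Agt in liver and Ren1 in kidney, against 21.2% of all liver genes and 2.01% of all kidney genes. The median log2 fold change was 0.22 over the 5 liver genes and -0.083 over the 7 kidney genes, beside -0.023 and -0.025 over all genes tested. Members that passed the filter are those with enough counts, so these medians leave out liver Ren1 and Mas1. With HS5 and HS6 summed as 1 library, 0 of the 5 liver genes, Agt included, had an unadjusted p under 0.05 by edgeR.

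**Figure D4:**
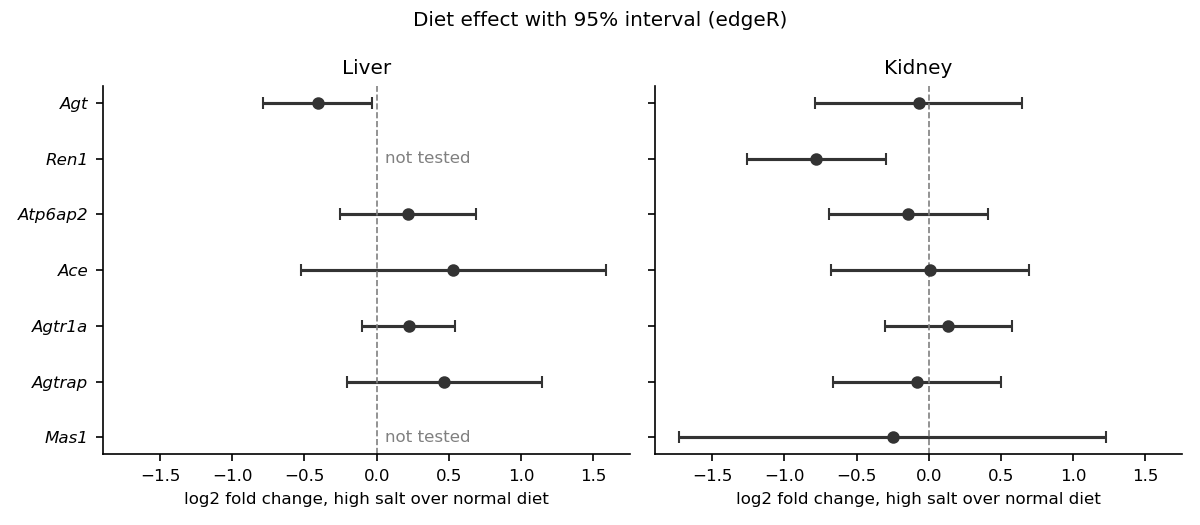
Log2 fold change of high salt over normal diet (horizontal axis) with its 95% interval for each gene tested by edgeR, in liver and in kidney. The intervals of liver Agt (-0.784 to -0.0326) and kidney Ren1 (-1.26 to -0.297) lie below 0, and those of the other genes cross it.

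Whether the diet difference itself differed between the tissues was tested as an interaction in 1 fit of all 14 libraries. None of the 5 genes with enough counts in both tissues passed (edgeR adjusted p = 0.619 to 0.924), and of 16633 genes 0% passed, with 10.1% at an unadjusted p under 0.05 and 145 genes passing in DESeq2. For Agt the liver minus kidney difference of the log2 fold changes was -0.33 (SE 0.360, 95% interval -1.10 to 0.436). The diet difference of liver Agt is therefore not shown to differ from that of kidney Agt. Ren1 and Mas1 entered that fit through their kidney counts, and their interaction values are not read here.

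The tissues differed strongly in which step of the pathway they transcribed. On the normal diet, in the same fit, Agt, Ace, Agtr1a, Agtrap and Atp6ap2, the 5 genes with enough counts in each tissue, all passed between liver and kidney (edgeR), beside 65.1% of all genes tested (32.9% higher in liver and 32.2% lower). Agt was 29.3-fold higher in liver, at 473 ± 66.6 CPM (SD, n = 4) against 16.1 ± 5.39 (SD, n = 3) on the scale of that fit (log2 4.87, SE 0.313, adjusted p = 4.03e-09). Ace was 192-fold higher in kidney, at 91.2 ± 37.8 CPM against 0.461 ± 0.337 in liver (log2 liver minus kidney -7.58, SE 0.426, adjusted p = 9.87e-10). The liver value of Ace rests on the few counts given above.

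The receptor and the proteins around it split between the tissues. Agtr1a was 1.83-fold higher in liver, at 38.2 ± 2.86 CPM against 20.9 ± 1.56 in kidney (log2 0.87, SE 0.169, adjusted p = 0.000363). Agtrap was 20.2-fold higher in kidney (log2 -4.34, adjusted p = 6.15e-09) and Atp6ap2 3.57-fold (log2 -1.84, adjusted p = 7.60e-06). Scaled within each tissue, Agtr1a was 32.2 ± 1.45 CPM in liver and 25.7 ± 2.00 in kidney, so that its ratio depends on how the tissues are put on 1 scale. The tissues come from separate tables, and a difference between tables cannot be told apart from one between tissues.

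Ren1 and Mas1 passed the filter of that fit through their kidney counts alone, which sets the direction beforehand, and they are given as values with no test. Ren1 was at 20.6 ± 3.31 CPM in normal diet kidney (SD, n = 3) and from 0.0292 to 15.9 CPM in the 4 normal diet liver libraries, of which all but library 4 held 5 counts or fewer. Mas1 was at 1.02 ± 0.842 CPM in kidney (SD, n = 3) and at 0 to 0.145 CPM in liver, from 0 to 4 counts.

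Divided by exon length, in CPM per kilobase and scaled within the tissue, the genes could be ordered. In normal diet liver the order was Agt (211 ± 33.7), Agtr1a (11.6 ± 0.520), Atp6ap2 (9.27 ± 1.86), Ren1 (2.15 ± 4.21), Agtrap (0.459 ± 0.156), Ace (0.0751 ± 0.0578) and Mas1 (0.0189 ± 0.0208), each SD with n = 4. Libraries of neighbours in this order did not overlap from Agt to Atp6ap2 or from Agtrap to Ace, while Mas1 overlapped Ace. Ren1 held its place through normal diet library 4 alone, at 8.45 CPM per kilobase. In the other normal diet libraries Ren1 was at 0.0143 to 0.0949, below every Agtrap library. On high salt Agt remained first at 159 ± 10.7, and Agtr1a (13.5 ± 2.02) and Atp6ap2 (10.8 ± 2.65) overlapped.

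In kidney, Atp6ap2 was the highest at 48.5 ± 12.0 CPM per kilobase on the normal diet, and its libraries lay above those of every other gene. Ace (21.2 ± 8.81), Ren1 (15.2 ± 2.42), Agtrap (13.4 ± 4.30), Agt (10.5 ± 3.53) and Agtr1a (9.22 ± 0.717) followed, each overlapping the next (SD, n = 3). Mas1 was last at 0.478 ± 0.396. On high salt Ren1 stood below Agtrap (12.6 ± 1.33), Agtr1a (10.1 ± 1.70) and Agt (9.98 ± 3.22), at 8.89 ± 1.32, and overlapped Agt and Agtr1a.

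The genes most like each member across libraries were taken by Pearson's r of log2 CPM, as a description with no test. For liver Agt, over 8 libraries and 12184 genes, they included Fgl1 (r = 0.958) and Susd4 (0.953). Fgl1 encodes a secreted protein of hepatocytes. For liver Agtr1a they were Ptbp2 (0.957), Fzd7 (0.946) and A630031M04Rik (0.946). For kidney Ren1, over 6 libraries and 11820 genes, they were Ccng1 (0.984), Itgb8 (0.976) and Zdhhc2 (0.970). For kidney Agt they were Mfsd5, Zmym3 and Shpk (0.987, 0.982 and 0.980), and for kidney Agtr1a Pfkfb3, Mettl14 and Dync1i2 (0.991, 0.969 and 0.967).

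Of 16 peptidases that make or break angiotensin peptides, 13 were tested in each tissue. In liver 1 passed, Enpep, the aminopeptidase A that removes the first residue of angiotensin II. Enpep measured 36.04, 35.9, 39.0 and 22.1 CPM in normal diet liver libraries 1 to 4 and 75.8, 70.6, 69.7 and 62.1 CPM in HS5 to HS8, so that every high salt library was above every normal diet one. It rose by 1.06 on the log2 scale (SE 0.188, edgeR adjusted p = 0.0424), beside 0.595% of liver genes called higher and 6.42% with every high salt library above the normal diet ones. With HS5 and HS6 summed the value was 1.04 and did not pass (adjusted p = 0.161). Leaving out normal diet library 1 or 2, or any 1 of HS5 to HS8, also ended the call, with values of 1.02 to 1.12 (edgeR adjusted p = 0.0560 to 0.159). The median log2 fold change of the 13 was 0.13, with 10 above 0.

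In kidney 0 of the 13 peptidases passed by edgeR and 0 had an unadjusted p under 0.05. Enpep measured 85.9, 163 and 135 CPM on the normal diet and 124, 156 and 191 CPM on high salt, with overlap (log2 0.30, SE 0.287). Prcp and Prep, which cleave after proline, had log2 values of -0.26 and 0.24.

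Of 14 other receptors and signalling partners of the type 1 receptor, 12 were tested in each tissue and 0 passed by edgeR. In liver 9 of the 12 were above 0, with a median log2 fold change of 0.39. Without normal diet libraries 1 and 2, 7 were above 0, with a median of 0.091. With all libraries, 3 had an unadjusted p under 0.05 by edgeR, beside 21.2% of all liver genes. These were Plcb3 and Plcb1, phospholipases that couple the receptor to calcium (0.61 and 0.55), and Jak2, a kinase bound by the receptor (0.42), with edgeR adjusted p = 0.174, 0.219 and 0.175. Plcb3 passed without normal diet library 4 (edgeR adjusted p = 0.0436). Jak2 was 6.48 to 8.87 CPM on the normal diet and 10.3 to 11.5 on high salt, without overlap. In kidney 5 of the 12 were above 0, 0 had an unadjusted p under 0.05, and the 3 with the lowest p were Nox4 (-0.52), Arrb2 (0.32) and Plcb1 (-0.22).

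Of 16 genes of renin cells and the macula densa, 14 were tested in kidney and 0 passed by edgeR. The lowest p was that of Ptger4, a prostaglandin E2 receptor known to drive renin release, at 2.90, 5.74 and 6.10 CPM on the normal diet and 2.32, 3.40 and 2.82 CPM on high salt. Its diets overlapped, since normal diet library 1 lay among the high salt libraries (log2 -0.79, SE 0.340, unadjusted p = 0.0481 by edgeR). Adora1, which inhibits renin release, and Adrb1, the beta receptor that stimulates it, had log2 values of -0.63 (SE 0.606) and -0.47 (SE 0.468). The median over the 14 was -0.083, with 6 above 0. In liver 13 were tested and 0 passed, and the 3 lowest p belonged to Rbpj (0.52), Adcy6 (0.79) and Adcy5 (1.12), with edgeR adjusted p = 0.137, 0.146 and 0.216. Rbpj passed in DESeq2 (adjusted p = 0.0381), and Adcy6 passed without normal diet library 4 (edgeR adjusted p = 0.0443).

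Of 16 V-ATPase subunits, the pump that the prorenin receptor belongs to, 15 were tested in liver and 0 passed by edgeR. All but 1 of the 15 had a log2 fold change below 0, with a median of -0.27 beside -0.023 over all liver genes tested. Atp6ap2 itself was above 0 at 0.22. An unadjusted p under 0.05 by edgeR was found for 3 of the 15 subunits, beside 21.2% of all liver genes. The lowest p was that of Atp6v0e, at 45.5, 48.5, 31.9 and 37.3 CPM in normal diet libraries 1 to 4 and 25.8, 26.1, 30.2 and 23.7 CPM in HS5 to HS8 (log2 -0.63, SE 0.166, edgeR adjusted p = 0.0985). Its diets did not overlap, with normal diet libraries 1 and 2 the highest. These are also the libraries with 2.30% and 2.06% of mitochondrial counts, whose part was not tested. Atp6v0b (-0.80) and Atp6v0d1 (-0.39) followed, with edgeR adjusted p = 0.141 and 0.152. Without normal diet libraries 1 and 2, 11 of the 15 subunits were below 0 by edgeR, with a median of -0.11. In DESeq2, 2 subunits passed, Atp6v0e and Atp6v0d1 (adjusted p = 0.0204 and 0.0433), where 592 of all liver genes passed lower and 530 higher. Atp6v0e also passed in edgeR without normal diet library 3 (adjusted p = 0.0392), where 393 of all liver genes passed lower and 372 higher. In kidney 16 were tested, 0 passed, 7 were above 0 and the median was -0.011. The 3 with the lowest p there were Atp6v1e1 (0.20), Atp6v0e (-0.25) and Atp6v1b2 (0.23).

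**Figure D5:**
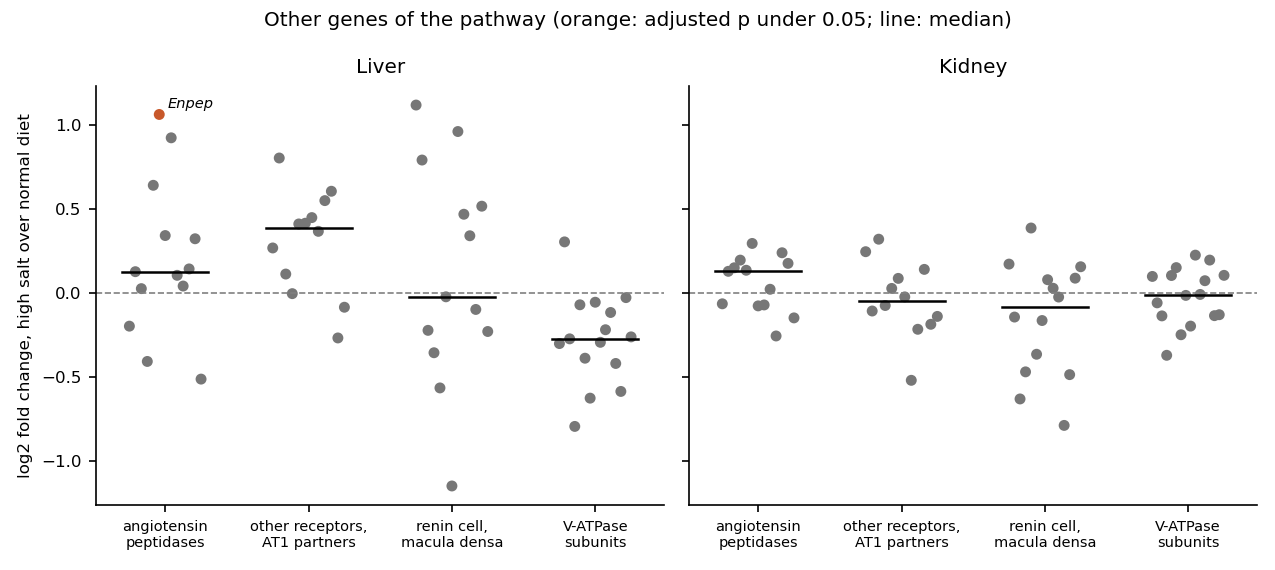
Log2 fold change of high salt over normal diet (vertical axis) for each gene tested in 4 lists around the pathway, in liver and kidney, with a line at each list's median. Enpep in liver, in orange at 1.06, is the gene past an adjusted p of 0.05, and the V-ATPase subunits in liver lie below 0 in all cases but 1.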

How the data were processed

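RNA of liver and kidney was made into SMARTer mRNA libraries, per the labels' protocols. The authors deposited expected counts per gene for each tissue, per the file headers, and normalized values, a signal on a linear scale. The submitters' processing notes name STAR 2.5.3a, Partek 7.0, DESeq2 and mm10, without their roles. Per-sample columns not used numbered 0. CPM use TMM library sizes and 1 scale per tissue. CPM per kilobase use exon unions of GENCODE M21, and sequences are from RefSeq.

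After rounding, each tissue was fitted apart in R 4.3.3 with edgeR 4.0.16 (TMM, filterByExpr, quasi-likelihood). Tissue and interaction were tested in 1 fit over the 17600 shared genes. Benjamini-Hochberg adjusted p-values under 0.05 over all genes tested were called. The fits were also run on simulated counts, with independent libraries and changes larger than the diet differences of the members. Those runs do not show whether differences of the members' size would be found. Alternatives were RLE scaling, no filter, DESeq2 1.42.0, limma 3.58.1 on log2 of the deposited normalized signal plus 1, removal of mitochondrial genes, all libraries in 1 fit, a replicate block, HS5 and HS6 summed, and leaving out libraries. Members, lists and tests were chosen with earlier results of these data known. Text names all members, list genes past the threshold or else the 3 with the lowest p per list and tissue, and the 3 genes most like a member among those with a mean of 50 counts. One gene that this rule takes is not reported here. Akr1b7 and the genes set beside liver Ren1 were named beyond that rule, after their values were seen.

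edgeR gave a common coefficient of variation of 0.314 (liver) and 0.300 (kidney), so that for most genes the spread between libraries exceeds counting error. Floors of 3 counts cover counting error only, since the sources used here name no molecular identifiers. In kidney, deviations of same-numbered libraries had r = 0.41, 0.37 and -0.090. Those of differently numbered libraries ran from -0.47 to 0.39. Deviations within groups of 3 are not independent, so these values cannot decide whether the numbers pair the libraries.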

Additional observations from a re-analysis of the deposited data

Results flagged for a closer look

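Of 34 groups of 4 liver libraries checked (the members and the named list genes, in each diet), 6 had 1 library far from its other 3, past the 95% limit of Dixon's ratio of gap to range. That limit would flag about 1.7 of them if all values were independent and normally distributed. These groups are not of that kind, since the list genes were chosen by their p and HS5 and HS6 are close. The 6 are therefore not read as an excess. Ren1 was at 14.01 CPM in normal diet library 4, where the other 3 were at 0.0238 to 0.157, and at 2.58 CPM in HS8, where the other 3 were at 0 to 0.0178. Atp6ap2 was at 17.1 CPM in normal diet library 4 against 26.0 to 27.7, and at 38.6 CPM in HS7 against 24.2 to 25.8. Jak2 was at 11.5 CPM in HS5, where the other high salt libraries were at 10.3 to 10.4. Atp6v0b was at 92.4 CPM in HS7, where the other high salt libraries were at 51.2 to 55.2. Kidney groups have 3 libraries and were not checked in this way.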

How the results depend on the processing

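Counts of genes past the threshold depended on the tool and on single libraries. In liver, 152 genes passed, beside 1122 with DESeq2, 260 with all 14 libraries in 1 fit, 12 with HS5 and HS6 summed, 52 without normal diet libraries 1 and 2, and 12 (without HS6) to 765 (without normal diet library 3) with 1 library left out. In kidney, 0 passed, beside 11 with DESeq2 and 0 with any 1 library left out. For the interaction 0 passed, beside 145 with DESeq2, 1 without normal diet liver libraries 1 and 2, and 0 to 7 (without HS7) with 1 library left out.

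Liver Agt stayed between -0.48 and -0.31 on the log2 scale in 16 alternatives (edgeR, DESeq2 or limma adjusted p = 0.0818 to 0.443), and kidney Ren1 between -0.91 and -0.67 in 13 (lowest adjusted p = 0.148, without normal diet library 1). Neither passed in any of them. Enpep stayed between 0.90 and 1.19 and passed in 8 of 16. The 5 genes tested between the tissues passed in all 20 alternatives. Of the pathway list genes named above that did not pass in liver, 3 passed with DESeq2 (Rbpj, Atp6v0e, Atp6v0d1). Without normal diet library 4, 2 of them passed (Plcb3, Adcy6), and without normal diet library 3, 1 passed (Atp6v0e). Over 16 alternatives each, the adjusted p of these genes ran up to 0.293 to 0.475 (edgeR, DESeq2 or limma). Among all 13 peptidases tested, 2 passed by edgeR without normal diet library 3, beside 1 with all libraries. The median of the 10 acute phase genes was -4.12, and -1.15 with 5 passing without normal diet library 4. With HS5 and HS6 summed as 1 library, 0 genes of the 4 pathway lists and 0 acute phase genes passed by edgeR. Log2 medians were then 0.096 (peptidases), 0.38 (receptors and partners), 0.025 (renin cell and macula densa), -0.30 (V-ATPase) and -4.06 (acute phase).

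Values near 0 changed sign without single libraries. In kidney they ran from -0.36 to 0.23 for Agt, -0.17 to 0.41 for Ace, -0.0058 to 0.22 for Agtr1a, -0.22 to 0.21 for Agtrap and -0.58 to 0.68 for Mas1. The interaction ran from -7.65 to 4.07 for Ren1 and -0.20 to 1.55 for Mas1, both near the floor in liver. Without normal diet liver libraries 1 and 2, liver Ace was -0.054, and the interaction was -0.016 for Ace and -0.012 for Mas1. The cause of these changes was not tested.

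With the replicate number as a block, 0 kidney genes passed (459 at an unadjusted p under 0.05 against 318 without the block), Ren1 was -0.78 (adjusted p = 0.998 by edgeR), and 7738 genes passed between the tissues. The block was not run for the interaction, since the high salt liver columns carry no title number. Depth limits liver Ace, Ren1 and Mas1.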
